A study of Mus musculus with 15 samples.

Results

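Calponins and transgelins are small actin-binding proteins of a single family, built around a calponin-homology domain. The 6 mouse genes Cnn1, Cnn2, Cnn3, Tagln, Tagln2 and Tagln3 were taken by symbol, and all 6 of them were found among the 45706 genes listed in each of 15 RNA-seq libraries. The libraries came from primary brain cultures of oligodendrocyte precursor cells (OPCs) and of oligodendrocytes (OLs) made from them by 3 days in differentiation medium. All cells were from SRF-floxed/floxed mice, so the controls carried the floxed Srf alleles too. Control OPCs received AAV-deleted CRE (4 libraries) and SRF-KO OPCs received AAV-CRE (3 libraries), both frozen 48 hours after infection. Control OLs received a GFP lentivirus (4 libraries) and SRF-KO OLs a lentivirus with CRE, an IRES and GFP (4 libraries), each on day 6 of culture. The AAV carried its insert behind a CMV promoter, which is not restricted to a cell type, and the design has no wild-type cells given Cre, so effects of Cre itself and of losing SRF cannot be told apart. The labels give neither the age of the mice nor whether replicates were separate animals, and p-values therefore measure the spread between these libraries.

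SRF, the serum response factor, binds a short DNA element called the CArG box and, with MRTF or myocardin cofactors, drives many genes of actin and contraction. Tagln (SM22-alpha) and Cnn1 (basic calponin) are textbook targets of this kind and mark smooth muscle. Cnn2 and Cnn3 are the calponins of non-muscle cells, Tagln2 is the broadly expressed transgelin of non-muscle and blood cells, and Tagln3 (NP25) is best known from neurons. Calponins bind actin filaments and restrain myosin on them, and transgelins crosslink or stabilise filaments. In oligodendrocytes, actin filaments build up while processes grow and are taken apart as myelin wraps.

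Each member is protein-coding, with positions here on GRCm38 from GENCODE M21. Cnn1 (ENSMUSG00000001349) lies on chromosome 9 at 22099216 to 22109630, plus strand. Cnn2 (ENSMUSG00000004665) lies on chromosome 10 at 79988584 to 79996062, plus strand. Cnn3 (ENSMUSG00000053931) lies on chromosome 3 at 121426497 to 121458207, plus strand. Tagln (ENSMUSG00000032085) shares chromosome 9 with Cnn1, at 45929619 to 45936058 on the minus strand. Tagln2 (ENSMUSG00000026547) lies on chromosome 1 at 172500047 to 172507380, plus strand, and Tagln3 (ENSMUSG00000022658) on chromosome 16 at 45711230 to 45724608, minus strand. Tagln overlaps the protein-coding gene Pcsk7 by 108 bases and an antisense gene, Gm48529, by 3627 bases, and Cnn3 overlaps the predicted genes Gm42928 and Gm42929 by 1078 and 1286 bases. The libraries do not keep strand, so reads in those overlaps cannot be told apart.

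Among the members, only the Cnn2 promoter held a full CArG box. RefSeq promoter windows (GRCm38.p6, 250 bases before to 50 bases after the annotated start, 300 in all) were matched for 5 of the 6 members, and Tagln was not matched. The 10-base CArG box was searched by its consensus, which reads the same on both strands. It was in 1.63% of all 32851 windows. A box with at most 1 mismatch was in 21.1% of windows and in none of those of Cnn1, Cnn3, Tagln2 and Tagln3. The Cnn2 box started 56 bases before the annotated start, at chr10:79988544-79988553. The same 10 bases stood 47 bases before the start of Lima1, which encodes an actin-binding LIM protein, and 227 bases before that of Vcl, which encodes the adhesion protein vinculin. Srf itself held 2 boxes, 82 and 62 bases before its start, and Actc1 held 1, 47 bases before. No full box was in the windows of Zyx, Smtn, Tpm4, Csrp1 and Flna. The Flna window held a box with 1 mismatch, 44 bases before its start. Zyx, Smtn and Tpm4 also had every knockout OPC library below every control, as did 6.25% of all genes tested. No window was matched for Tgfb1i1, and Actb was not searched. These further genes were picked with their knockout values known, so the windows do not relate box to response. The stretches below are box-bearing windows only, and are shown because Cnn2 is the member furthest below control in the knockout OPCs and Lima1 the pathway gene that passed the test there. Each is written 5′ to 3′ on the gene's strand with the CArG box in capitals. They span chr10:79988514-79988583 for Cnn2, chr15:99820177-99820206 for Lima1, chr14:20929161-20929190 for Vcl, and chr17:46556225-46556254 and chr17:46556205-46556234 for Srf. A match describes letters in a window, not binding, and a window without one says nothing about sites elsewhere.
Cnn2: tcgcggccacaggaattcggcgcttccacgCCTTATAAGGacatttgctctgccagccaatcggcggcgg
Lima1: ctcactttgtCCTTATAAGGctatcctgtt
Vcl: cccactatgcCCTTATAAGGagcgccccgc
Srf, farther box: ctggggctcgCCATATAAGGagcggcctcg
Srf, nearer box: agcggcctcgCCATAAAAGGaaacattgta

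Total expected counts ran from 8964310 to 16026511 in the 7 OPC libraries and from 4303739 to 13139258 in the 8 OL libraries. The OL files list gene lengths that include introns and the OPC files list spliced lengths, so levels are not compared between the stages. Srf had 5.57 to 9.67 normalised CPM in control OPCs and 0.20 to 0.22 in SRF-KO OPCs, and 7.13 to 9.34 in control OLs against 2.06 to 4.34 in SRF-KO OLs. A lincRNA gene, Gm26904, covers all 7847 bases of Srf on the other strand, with 0 counts in OPC libraries and 67.07 to 189.35 in OL libraries. Normalised CPM (library-size-scaled counts) uses TMM factors within a stage. The OPC markers (Pdgfra, Olig1 and others, 8 genes) summed to 4743 to 6754 CPM in OPC libraries. The oligodendrocyte markers (Mbp and others, 10 genes) summed to 14154 to 39464 CPM in OL libraries. The labelled cell types thus had their markers, which does not show pure cultures. Astrocyte markers (8 genes) summed to 1155 to 1520 CPM in OPC libraries and 8864 to 34548 in OL libraries. OPC markers summed to 2499 to 4484 CPM in OL libraries. SRF-KO OPC replicate 2 lay at 47.6 on the first principal component of its stage against -23.0 to 6.01 for the others, and SRF-KO OL replicate 4 at 80.5 against -18.8 to 0.45. SRF-KO OL replicate 4 held 14.2% mitochondrial counts, against 9.08% to 11.6% in the other OL libraries. Its total was 5133146 expected counts, and only SRF-KO OL replicate 3 had fewer (4303739). Its Srf level was 4.34 normalised CPM, against 2.06 to 3.05 in the other SRF-KO OL libraries. The part of these traits in its values was not tested.

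Cnn2, the non-muscle calponin with the promoter box, was at 0.367 of control level in SRF-KO OPCs. It had 12.8, 9.31, 8.13 and 10.2 normalised CPM in control OPC replicates 1 to 4 and 4.86, 2.82 and 3.65 in SRF-KO OPC replicates 1 to 3. All 3 knockout libraries lay below all 4 controls, the nearest pair being 8.13 and 4.86. The control libraries held 74 to 172 Cnn2 counts each and the knockouts 34 to 44. The means were 10.1 ± 2.00 (SD, n = 4) and 3.78 ± 1.03 (SD, n = 3), and edgeR's log2 fold change was -1.45 (SE 0.26, 95% interval -2.01 to -0.88). The edgeR quasi-likelihood p was 0.000148 and the Benjamini-Hochberg adjusted p over 13271 genes 0.0937, so Cnn2 did not pass the 0.05 threshold. Alternatives placed it on the other side: DESeq2 gave an adjusted p of 0.000226, edgeR with no low-count filter 0.00546, and one edgeR fit of all 15 libraries 0.0110. Those alternatives called 1.21%, 0.466% and 0.192% of their genes. Scaling by library totals, which called 0.098%, gave 0.0771. Without any 1 of the 7 libraries the edgeR log2 fold change stayed between -1.66 and -1.25, with adjusted p of 0.122 to 0.258.

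Tagln2 was the other member whose OPC groups did not overlap, with a difference far smaller than that of Cnn2. Control OPC replicates 1 to 4 had 380, 369, 341 and 359 normalised CPM and SRF-KO OPC replicates 1 to 3 had 324, 258 and 306. Each knockout library was below each control, and SRF-KO OPC replicate 2, the library that stands apart, was the lowest. The log2 fold change was -0.29 (SE 0.090, 95% interval -0.49 to -0.09), with an edgeR adjusted p of 0.273. Without SRF-KO OPC replicate 2 it was -0.20 (edgeR leave-one-out fit).

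Cnn3 and Tagln3 lay close to control in OPCs. Cnn3 had 670, 684, 718 and 727 normalised CPM in the controls and 724, 855 and 718 in the knockouts. The groups overlapped, and replicate 2 was the high knockout library. Its log2 fold change was 0.13 (95% interval -0.04 to 0.30, edgeR adjusted p = 0.535). Tagln3 had 108, 104, 96.7 and 103 in the controls and 103, 120 and 106 in the knockouts, again with overlap and with replicate 2 highest. The log2 fold change was 0.09 (95% interval -0.10 to 0.28, edgeR adjusted p = 0.703). Without SRF-KO OPC replicate 2 the edgeR log2 fold changes were 0.04 for Cnn3 and 0.02 for Tagln3. The intervals of both genes still allow a higher level, up to 0.30 and 0.28 on the log2 scale.

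The smooth-muscle members were at or near the floor in OPCs and did not pass the low-count filter. Cnn1 had 1 count in control OPC replicate 4 and 0 in the other 6 OPC libraries, where 3 counts, the limit that a count of 0 allows, would be 0.187 to 0.335 CPM per library by library total. Tagln had 0.82, 1.01, 0.99 and 0.17 normalised CPM in control OPCs and 0.77, 0.13 and 0.54 in SRF-KO OPCs, from 2 to 16 counts per library. With the filter off, Tagln had an edgeR p of 0.422, and a difference in either gene was not detectable at this depth. Markers of mural cells and fibroblasts, which express both genes, were scarce too. Their 10-gene list summed to 1.54 to 7.69 CPM in control OPCs and 2.15 to 6.94 in SRF-KO OPCs, with Kcnj8, Abcc9 and Dcn at 0 in every OPC library.

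Across the OPC comparison, edgeR called 0 of the 4 tested members, against 0.0678% of all genes tested (9 of 13271, with 0.0226% higher and 0.0452% lower). DESeq2 called 1 of them, Cnn2. At an unadjusted edgeR p under 0.05 there were 2, Cnn2 and Tagln2, against 11.9% of all genes. The same 2 members had groups that did not overlap, both lower, where 6.25% of all genes were lower without overlap, 5.96% higher and 12.2% either way. Astrocyte markers differed in the same libraries: 7 of 8 had higher means in SRF-KO OPCs, their sum being 1155 to 1266 CPM in controls and 1412 to 1520 in knockouts. OPC markers had lower means in 7 of 8 cases, with sums of 6403 to 6754 and 4743 to 6216. Oligodendrocyte markers, led by Cnp, summed to 487 to 529 and 534 to 572, with Mog at 0 in every OPC library. In OPCs edgeR called 0 genes of the astrocyte, OPC and oligodendrocyte lists in either direction. The part of these marker differences in the Cnn2 and Tagln2 values was not tested.

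**Figure D1:**
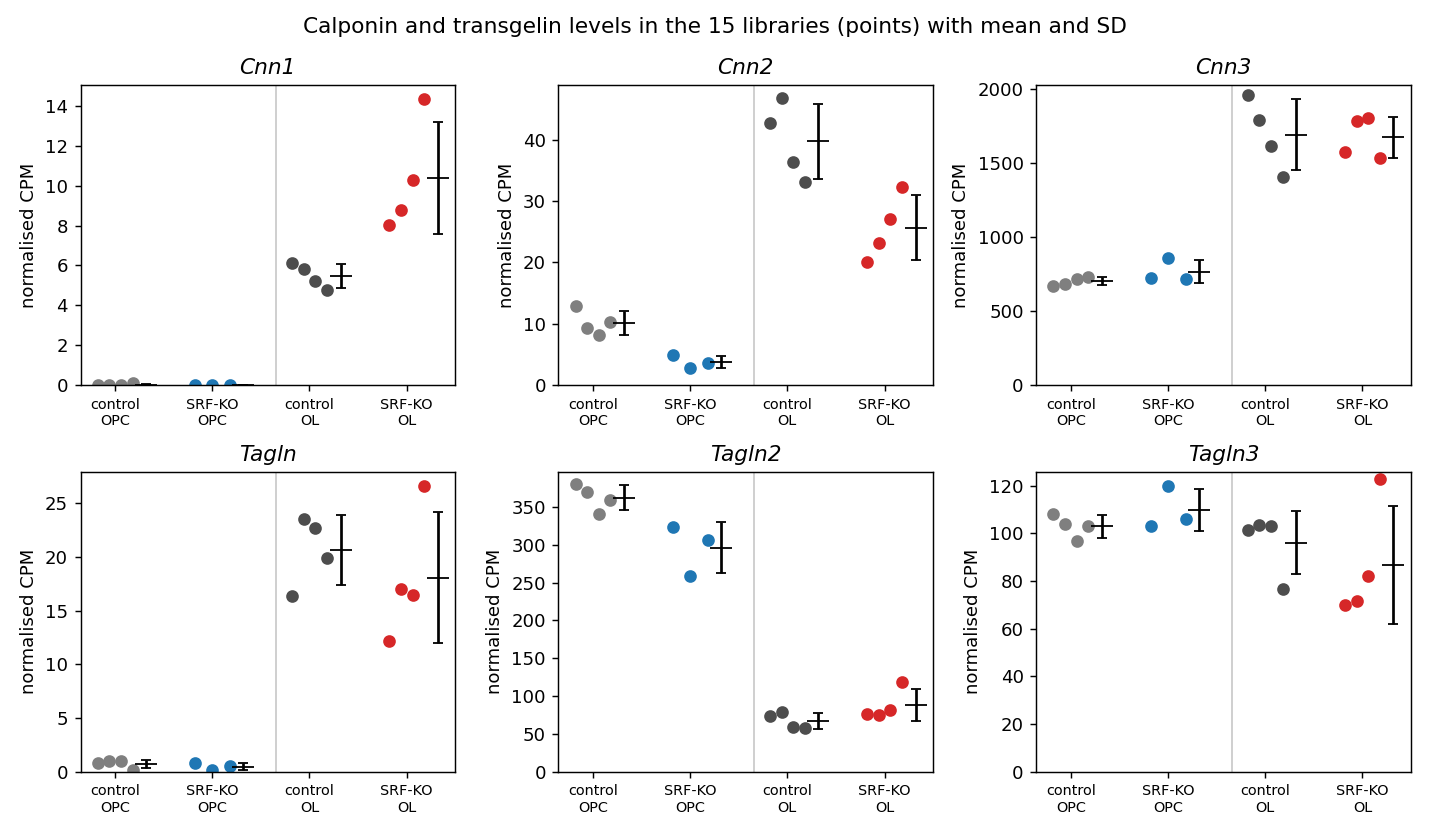
Normalised CPM (y axis, from 0, a separate scale per gene) of each member in each library (points, replicates 1 to 3 or 4 from left to right) by group, with the group mean and SD as a black bar; the grey line parts OPC from OL libraries, whose levels are on different counting schemes. Cnn2 lies lower in every knockout library of both stages, Cnn1 is at 0 in nearly all OPC libraries and higher in every SRF-KO OL library, and SRF-KO OL replicate 4 is the highest SRF-KO OL library for Cnn1, Cnn2, Tagln, Tagln2 and Tagln3.

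In OLs, Cnn2 in normalised CPM was again below control in every knockout library, with a smaller fold than in OPCs. Control OL replicates 1 to 4 had 42.7, 46.8, 36.4 and 33.2 normalised CPM and SRF-KO OL replicates 1 to 4 had 19.99, 23.2, 27.1 and 32.3. The groups nearly met, at 33.2 in control replicate 4 and 32.3 in knockout replicate 4. The means were 39.8 ± 6.11 and 25.7 ± 5.29 (SD, n = 4 each), and the log2 fold change was -0.65 (SE 0.17, 95% interval -1.02 to -0.27, edgeR adjusted p = 0.190 over 15193 genes). Without SRF-KO OL replicate 4 it was -0.80 with an edgeR adjusted p of 0.0112, in a fit that called 4.12% of genes, and DESeq2 on all libraries gave 0.0337, calling 1.97%. Over all alternatives the adjusted p for Cnn2 in OLs ran from 0.0112 to 0.504. Scaled by library totals the groups overlapped, with 33.1 CPM in control OL replicate 3 and 33.3 in SRF-KO OL replicate 4. The edgeR log2 fold change on that scale was -0.42 (adjusted p = 0.216). Scaling by library totals raised the median log2 fold change of all OL genes by 0.21. Relative to that shift the Cnn2 value was close to the one with TMM factors.

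Cnn1, the smooth-muscle calponin, was higher in SRF-KO OLs. It had 6.14, 5.80, 5.20 and 4.75 normalised CPM in control OL replicates 1 to 4 and 8.05, 8.78, 10.3 and 14.3 in SRF-KO OL replicates 1 to 4. No knockout library reached down to a control, and replicate 4 was the highest. Cnn1 counts were 34 to 68 in controls and 50 to 110 in knockouts, and the means were 5.47 ± 0.62 and 10.4 ± 2.81 (SD, n = 4 each). The log2 fold change was 0.89 (SE 0.21, 95% interval 0.44 to 1.35, edgeR adjusted p = 0.144), a level of 1.86 times control. It passed the threshold with scaling by library totals (1.12, adjusted p = 0.0338), in DESeq2 (0.88, 0.0187) and in edgeR without SRF-KO OL replicate 4 (0.68, 0.0399), and missed it in the other 11 alternatives, with adjusted p up to 0.432. Scaling by library totals raised the median log2 fold change of all OL genes by 0.21, and relative to that shift the Cnn1 value was close to the one with TMM factors.

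Markers of mural cells and fibroblasts in OLs had a sum close to the control level of Cnn1 itself. The sum of their 10 genes ran from 4.48 to 6.08 CPM in controls and from 4.79 to 7.55 CPM in knockouts, ranges that overlap. Means were higher in SRF-KO OLs for 8 of the 10, and 0 of the 3 tested were called by edgeR. Pdgfrb, the most abundant of them, had 1.82 ± 0.26 and 1.87 ± 0.26 CPM (SD, n = 4 each). Kcnj8, a pericyte potassium channel gene, had 0.948 ± 0.41 and 1.56 ± 0.33 CPM (SD, n = 4 each), from 8 to 20 counts a library. Des was at 0 in every SRF-KO OL library. The part of such cells in the Cnn1 values was not tested. The OL files list Cnn1 at 10350 bases, nearly its gene body of 10415 with introns, and the part of intronic reads in its counts was not tested.

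Tagln, the other smooth-muscle member, did not follow Cnn1. Control OLs had 16.4, 23.6, 22.6 and 19.9 normalised CPM and SRF-KO OLs had 12.2, 17.0, 16.5 and 26.6. The ranges overlapped, replicate 4 being above every control and the others at or below 17.0. The log2 fold change was -0.21 (95% interval -0.69 to 0.27, edgeR adjusted p = 0.784), and -0.47 without SRF-KO OL replicate 4.

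Tagln2 had 73.1, 79.4, 59.7 and 57.6 normalised CPM in control OLs and 76.2, 74.7, 82.1 and 119 in SRF-KO OLs. Replicate 4 again stood above the rest, and the remaining knockout libraries lay inside or just above the control range. The log2 fold change was 0.38 (95% interval -0.02 to 0.78, edgeR adjusted p = 0.462) and 0.18 without SRF-KO OL replicate 4. Scaled by library totals, every knockout library was above every control, at 79.9 to 123 CPM against 54.3 to 70.3. The edgeR log2 fold change was then 0.60 (adjusted p = 0.1315), under a scaling that raised the median of all OL genes by 0.21. Tagln3 had 101, 104, 103 and 76.6 in control OLs and 70.1, 71.4, 82.1 and 123 in SRF-KO OLs, so its groups overlapped through replicate 4 of each. Its log2 fold change was -0.15 (95% interval -0.58 to 0.28, edgeR adjusted p = 0.832), and -0.39 without SRF-KO OL replicate 4 (edgeR adjusted p = 0.0744). Scaling by library totals turned the sign of Tagln3 (0.07).

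Cnn3, the acidic calponin, had 1962, 1787, 1615 and 1402 normalised CPM in control OLs and 1573, 1781, 1805 and 1533 in SRF-KO OLs. The knockout values all fell inside the control range. The log2 fold change was -0.02 (95% interval -0.39 to 0.36, edgeR adjusted p = 0.987), and 0.22 with scaling by library totals. That scaling raised the median of all OL genes by 0.21. The direction of Cnn3 is therefore not defined by these libraries.

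**Figure D2:**
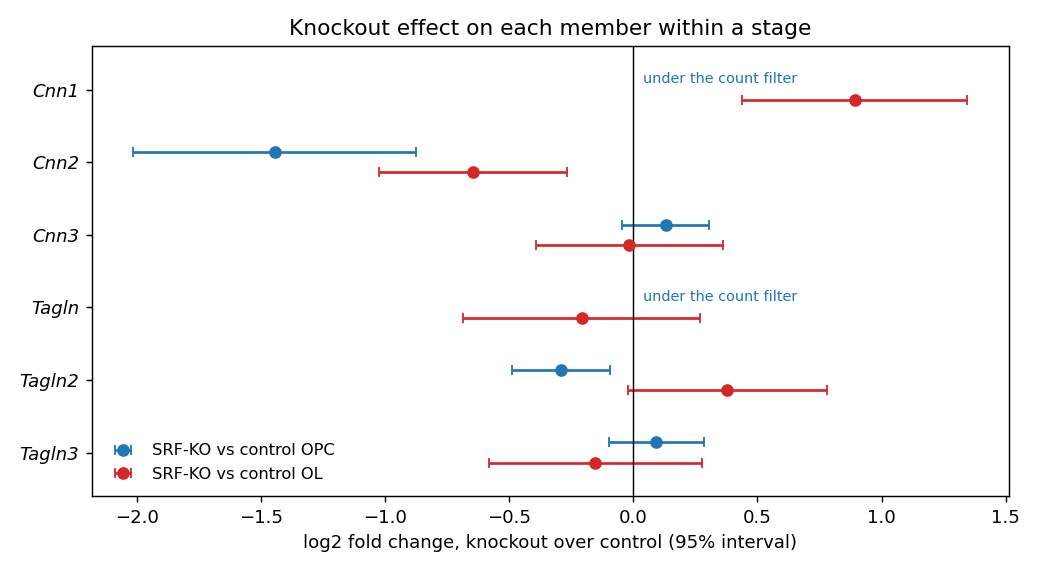
edgeR log2 fold change of knockout over control (x axis, point) with its 95% interval (bar) for each member, OPCs in blue and OLs in red; Cnn1 and Tagln did not pass the count filter in OPCs. Intervals for Cnn2 in both stages, Tagln2 in OPCs and Cnn1 in OLs lie to 1 side of 0, and no member passed the adjusted threshold.

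Across the OL comparison edgeR called 0 of the 6 members, against 0.296% of all genes (45 of 15193, with 0.0658% higher and 0.23% lower), while DESeq2 called 2, Cnn1 and Cnn2. At an unadjusted edgeR p under 0.05 there were 2, Cnn1 and Cnn2, against 11.6% of genes. In normalised CPM those 2 also had groups without overlap, Cnn1 higher and Cnn2 lower, where 8.09% of all genes did (4.19% higher and 3.9% lower). Scaling by library totals called Cnn1 among 0.487% of genes, while edgeR with no filter (0.473% called) and the fit of all libraries (0.583% called) called 0 members. Other cells' markers differed between the OL groups. The astrocyte marker sum ran from 17100 to 34548 CPM in controls and from 8864 to 14038 CPM in knockouts. Of these markers 7 of 8 had lower means and edgeR called 0. Gfap, the most abundant, was at 18738 ± 6748 and 7486 ± 1928. Microglia markers summed to 215 to 577 and 61.9 to 140, all knockout sums lower, with 5 of 10 means lower and 1 gene called lower by edgeR, and no list member was at 0 throughout. Oligodendrocyte markers had 10 of 10 means lower and 1 called lower by edgeR, with sums of 20905 to 39464 and 14154 to 20601. Neuron markers, relevant to Tagln3, summed to 246 to 306 and 206 to 303, and Tubb3 led them at 135 ± 14.3 and 128 ± 28.7 CPM. In bulk RNA, fewer cells of a type and less RNA per cell cannot be told apart. The part of these marker differences in the Cnn2 and Cnn1 values was not tested.

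Whether the knockout effect differed between the stages was tested as an interaction over all 15 libraries. For Cnn2 the OL effect minus the OPC effect was 0.79 on the log2 scale (SE 0.28, 95% interval 0.20 to 1.39, edgeR adjusted p = 0.367). For Tagln2 it was 0.66 (SE 0.22, 95% interval 0.20 to 1.11, edgeR adjusted p = 0.313). Cnn3 (-0.16, 95% interval -0.56 to 0.23) and Tagln3 (-0.27, 95% interval -0.75 to 0.21) had intervals around 0. No member passed the edgeR adjusted threshold, which 0.112% of all genes did (0.0434% higher and 0.0682% lower), and DESeq2 called none of these 4 either. Cnn2 and Tagln2 were under an unadjusted p of 0.05, as were 9.25% of all genes. The stages also differ in virus, AAV against lentivirus, and in measured Srf loss. Srf was at 0.0279 of control in OPCs and 0.367 in OLs, a difference of 3.68 on the log2 scale (edgeR adjusted p = 0.00465). In OLs its reads cannot be told apart from those of Gm26904. Stage, virus and remaining Srf therefore cannot be told apart.

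**Figure D3:**
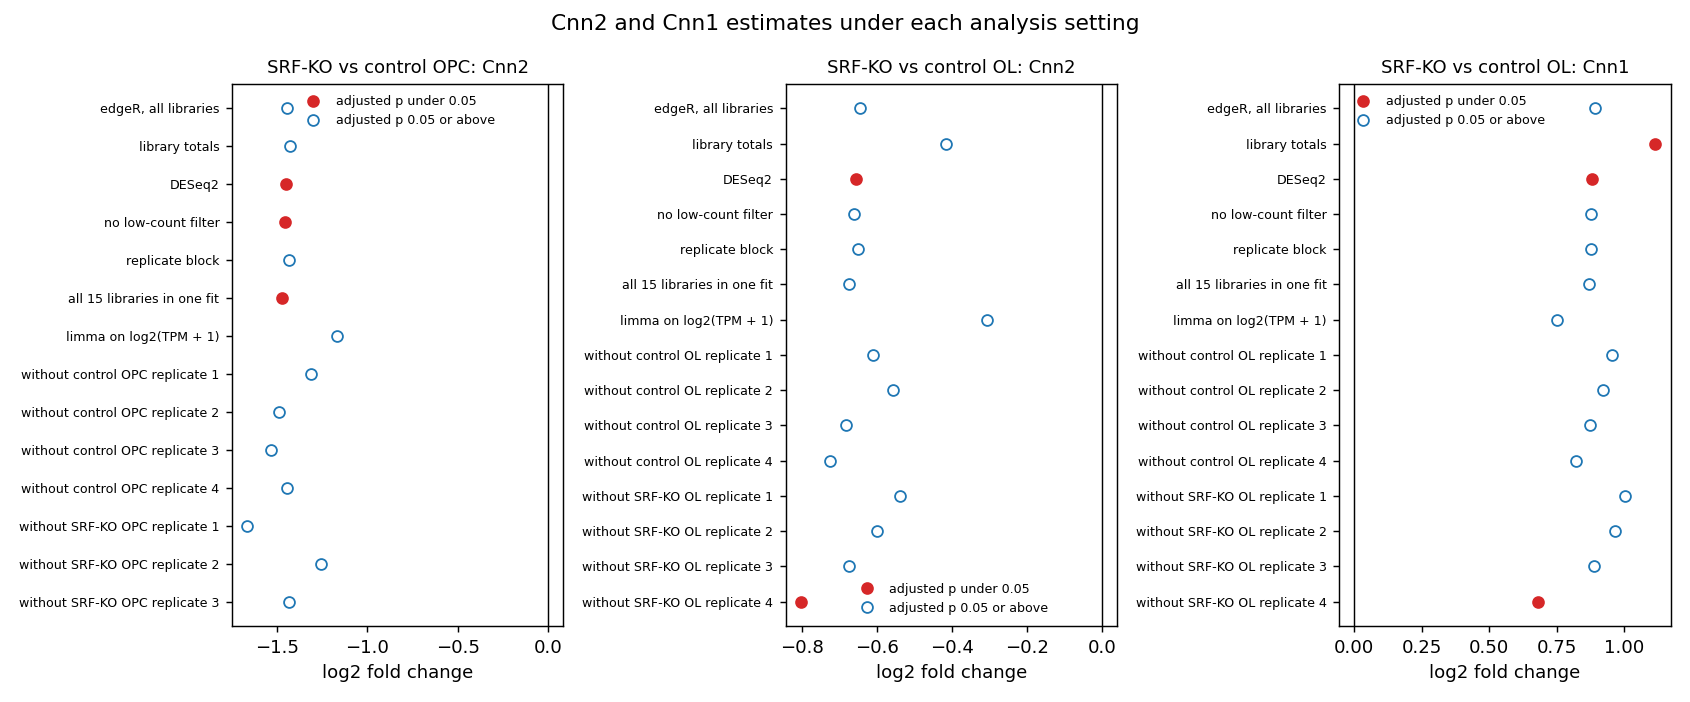
log2 fold change (x axis) of Cnn2 in OPCs, Cnn2 in OLs and Cnn1 in OLs under edgeR with all libraries and each alternative (rows), filled red where the adjusted p was under 0.05. The direction was the same under every setting shown, while 3, 2 and 3 alternatives respectively placed the gene past the threshold.

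Within calponins, Cnn3 was the dominant gene at both stages. Compared per length with the deposited TPM, control OPCs had 537 ± 61.4 TPM of Cnn3, 6.56 ± 0.89 of Cnn2 and 0.015 of Cnn1 (SD, n = 4). Cnn3 thus made up 98.8% ± 0.29 of the calponin sum in control OPCs and 99.6% ± 0.18 in SRF-KO OPCs (n = 3). The share of Cnn2 was 1.23% ± 0.29 and 0.442% ± 0.18, every knockout library being below every control. For OLs, CPM were divided by the mean spliced length that the OPC files list. OL counts may include intronic reads, whose part in the levels on this scale was not tested. On that scale control OLs had 761 ± 34.5 CPM per kb of Cnn3, 15.7 ± 1.49 of Cnn2 and 2.13 ± 0.088 of Cnn1 (n = 4). Cnn3 held 97.7% ± 0.16 of the calponin sum in control OLs and 98.1% ± 0.49 in SRF-KO OLs. The Cnn1 share was 0.273% ± 0.0088 in control OLs and 0.529% ± 0.17 in SRF-KO OLs.

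The deposited OL values for Cnn3 rest on an unusual length. RSEM's listed length for Cnn3 was 1192 to 1341 bases in OL files, although the gene body spans 31711 bases and the other members' OL lengths were 6431 to 13379. Annotated Cnn3 transcripts at the 3′ end of the gene, Cnn3-205 and Cnn3-208, span 864 and 837 bases. In TPM, control OLs therefore had 2905 ± 358 of Cnn3 against 11.9 ± 1.61 of Cnn2. By either scale Cnn3 was the highest of the 6 members in all 15 libraries.

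Among transgelins, Tagln2 led in OPCs in every library. Control OPCs had 410 ± 20.3 TPM of Tagln2, 141 ± 6.25 of Tagln3 and 0.76 ± 0.41 of Tagln (SD, n = 4). In full, the OPC order by TPM was Cnn3, Tagln2, Tagln3, Cnn2, Tagln and Cnn1, held in all 7 libraries, with no overlap of ranges between neighbours in either group.

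Which transgelin led in OLs depended on the length used. Per kb of spliced length, control OLs had 71.2 ± 4.21 CPM per kb of Tagln3 and 41.8 ± 4.45 of Tagln2, with Tagln3 higher in 4 of 4 libraries and no overlap. In deposited TPM the order was the other way, 15.5 ± 2.06 of Tagln3 and 20.02 ± 2.77 of Tagln2. The listed OL length of Tagln3, 13379 bases, is its whole gene body with introns, against a spliced length of 1240 bases. Any intronic reads among the OL counts would raise the values per spliced kb, so neither scale settles which transgelin led. In SRF-KO OLs Tagln3 and Tagln2 had 74.9 ± 19.3 and 63.6 ± 13.3 CPM per kb, ranges that overlapped although Tagln3 was higher within each library. Tagln had 12.1 ± 2.36 and 12.2 ± 3.74 CPM per kb in control and SRF-KO OLs. On that scale Tagln and Cnn2 changed places between SRF-KO OL libraries, each being the higher in 2 of 4, while in deposited TPM Cnn2 was the higher in 4 of 4.

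The balance of Tagln2 and Tagln3, which no library scaling can move, went opposite ways in the stages. The ratio of Tagln3 to Tagln2 TPM was 0.343, 0.344, 0.332 and 0.357 in control OPCs and 0.416, 0.609 and 0.433 in SRF-KO OPCs. All knockout OPC libraries were above the controls. Per kb of spliced length, the ratio was 1.656, 1.56, 2.07 and 1.59 in control OLs and 1.10, 1.14, 1.20 and 1.24 in SRF-KO OLs, all below the controls, replicate 4 included. As a share of the transgelin sum, Tagln2 went from 74.3% ± 0.53 to 67.4% ± 4.62 in OPCs and from 33.4% ± 2.83 to 42.4% ± 1.49 in OLs. Without SRF-KO OPC replicate 2 the knockout OPC share was 70.1%. These are descriptions with no test, since they combine chosen members. The part of intronic reads in the OL ratios and shares was not tested either.

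**Figure D4:**
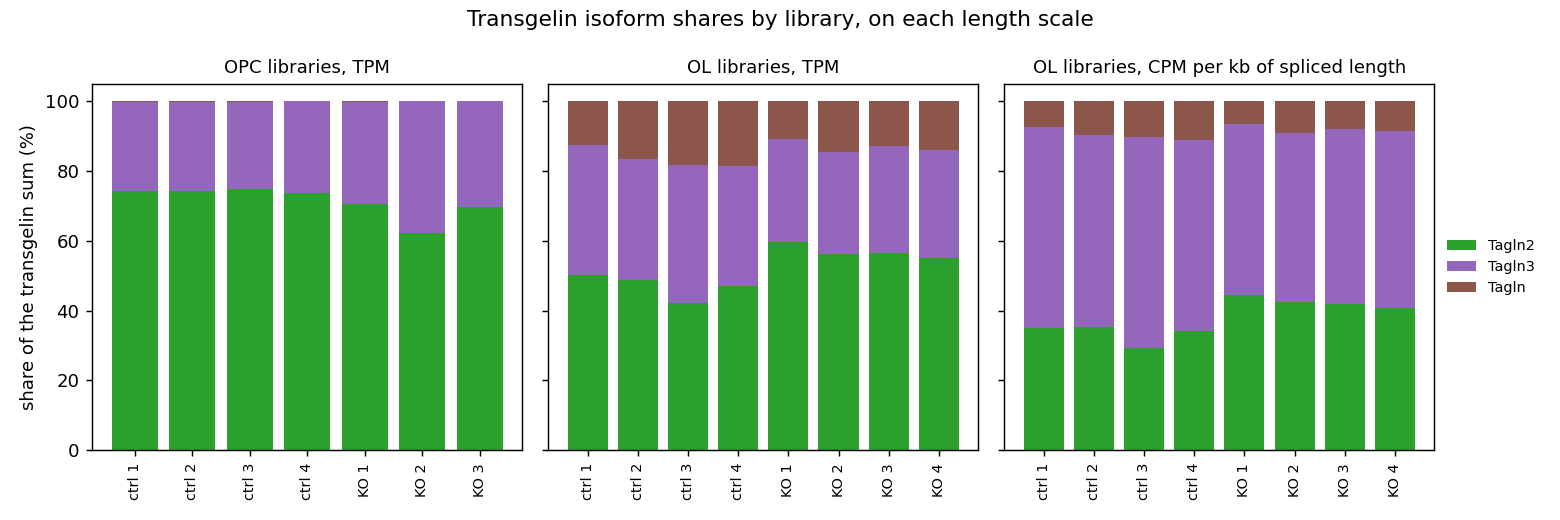
Share of each transgelin (%, stacked to 100) in every library, for OPC TPM, OL TPM and OL CPM per kb of spliced length; ctrl and KO mark control and SRF-KO replicates. Tagln is too small to see in OPCs, the Tagln2 part is smaller in KO than in control OPCs and larger in KO than in control OLs on both scales.

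The other genes of the thin filament and of SRF-MRTF transcription were read from lists described with the methods. Of 19 tested thin filament and actomyosin partners in OPCs, 0 passed edgeR's adjusted threshold, 6 had an unadjusted p under 0.05 (0.0678% and 11.9% of all genes), and the median log2 fold change was -0.20, against -0.00127 over all genes. DESeq2 called 1, where it called 1.21% of all genes. Actb, cytoplasmic actin, had 3946 ± 241 and 2983 ± 419 CPM (log2 -0.40), Actc1, cardiac actin, 8.27 ± 1.24 and 4.32 ± 1.69 (-0.94), and Tpm4, a non-muscle tropomyosin, 415 ± 15.5 and 357 ± 6.57 (-0.22), with edgeR adjusted p from 0.187 to 0.290. Among 14 tested genes of the SRF-MRTF list, 1 fell, Lima1, and 0 rose, with a median of -0.00833. Lima1 went from 116 ± 6.82 to 74.4 ± 3.49 CPM (log2 -0.65, edgeR adjusted p = 0.0300), a call lost without any 1 OPC library. Tgfb1i1, a LIM adaptor of focal adhesions, had 15.7 ± 2.96 and 7.29 ± 1.59 CPM (-1.10, edgeR adjusted p = 0.117), close in fold to Cnn2. Zyx, a focal adhesion LIM protein, was at -0.29 and Vcl at -0.45, with edgeR adjusted p of 0.299 and 0.337.

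In OLs, 0 of 20 tested thin filament partners and 0 of 16 tested SRF-MRTF genes passed edgeR's adjusted threshold, with 3 of each at an unadjusted p under 0.05. Of all genes, 0.296% and 11.6% did. DESeq2 called 2 of each list and 1.97% of all genes. The medians were -0.16 and -0.15, against 0.02 over all genes. Actb had 7766 ± 2034 and 3557 ± 971 CPM (log2 -1.13), Flna, an actin crosslinker, 74.8 ± 6.00 and 54.9 ± 4.80 (-0.45), and Myl6, a myosin light chain, 122 ± 23.5 and 85.5 ± 29.8 (-0.52). In the other list Csrp1, a LIM protein of actin bundles, had 123 ± 17.8 and 82.5 ± 7.09 CPM (-0.57), Tgfb1i1 12.7 ± 2.57 and 7.97 ± 1.47 (-0.69), and Thbs1, a secreted matrix protein, 11.2 ± 3.53 and 20.1 ± 2.99 (0.83). Their edgeR adjusted p ran from 0.154 to 0.420. Without SRF-KO OL replicate 4, edgeR called 4 thin filament partners and 3 SRF-MRTF genes, in a fit that called 4.12% of all genes.

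Genes whose levels ran most like a member's were sought among 9737 OPC and 10498 OL genes with an average log2 CPM of at least 3. The points are libraries that share the knockout contrast and depth, so these values describe likeness only. The best of so many genes over 7 or 8 libraries have a high r through selection alone. The part of SRF-KO OL replicate 4 in the OL values was not tested. Over the 7 OPC libraries, Cnn2 ran closest to Gm26917 (Pearson r 0.995, Spearman rho 0.964) and Gnptab (0.989, 0.964). Actb was among the 2 genes nearest to Tagln2 (0.994, 1.00). Cnn3 was nearest to Kcnj16 (0.984, 0.679) and Rnf114 (0.980, 0.964), and Tagln3 to Snap47 (0.986, 0.964) and Dnajc8 (0.985, 0.893). Over the 8 OL libraries Cnn2 ran closest to Triobp (0.985, 0.976) and Serpina3n (0.982, 1.00). Cnn1 was nearest to Bace2 (0.990, 1.00) and 2410004P03Rik (0.985, 0.976), and Tagln to Pth1r (0.955, 0.833) and Rac3 (0.952, 0.929). Tagln2 was nearest to Pa2g4 (0.992, 0.929) and Gm2199 (0.988, 0.929), Tagln3 to Mrps18a (0.989, 0.905) and Erh (0.986, 0.952), and Cnn3 to Emc3 (0.980, 0.952) and Gm21986 (0.958, 0.952). No gene was nearest to the same member in both stages.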

How the data were processed

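PolyA RNA was made into Smart-seq2 libraries, which do not keep strand, and read as single reads of 63 bases, per the labels' protocols. The submitters' processing notes name the tools bcl2fastq, STAR and RSEM and the builds GRCm38 and Rnor_6.0, without roles. Each deposited file gives the authors' RSEM expected counts, TPM (length-corrected and scaled to a fixed sum) and lengths. Listed lengths are spliced in OPC files and include introns in OL files. SRF-KO OL samples are grouped by title, since their treatment tag names CRE but ends in "control", and the series text on mesenchymal stem cells and Olig2-Cre does not match the sample labels.

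Rounded expected counts went into edgeR 4.0.16 (filterByExpr, TMM, quasi-likelihood F-test) in R 4.3.3, with Benjamini-Hochberg adjustment over all genes tested. SE is the absolute log2 fold change over the square root of F, and 95% intervals use it with edgeR's degrees of freedom. Alternatives were library totals, DESeq2 1.42.0, no low-count filter, a replicate block, 1 fit of all 15 libraries, limma 3.58.1 on log2(TPM + 1), and leaving out each library. The edgeR step was tested on simulated data of 13271 (OPC) and 15193 (OL) genes, and recovered 82% and 80% of 100 genes with a log2 change of 1. The simulated spread followed the fitted trend alone, many genes changed at once, low-count genes were not changed and no library was outlying. These rates therefore do not give the power for a member in the real libraries, and a member not called may still differ.

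Members and lists were chosen with earlier results of these data known. The lists are 25 thin filament and actomyosin partners, 18 SRF-MRTF pathway genes (Ccn1, Ccn2, Mrtfa and Mrtfb under current symbols) and markers of mural cells and fibroblasts, neurons, microglia, endothelium, astrocytes, OPCs and oligodendrocytes. The endothelial list of 6 summed to 0.516 to 1.71 CPM in OPC libraries and 3.81 to 8.49 in OL libraries, led by Kdr. Named were Srf, all members, called list genes and the 3 further list genes of smallest p, the 2 genes most like each member, and the leading marker of lists discussed, except a few genes that are not reported here. The overlapping Gm genes and Pcsk7, Smtn, Kcnj8 and markers at 0, were named after values were seen.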

Additional observations from a re-analysis of the deposited data

Results flagged for a closer look

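Among 18 groups of 4 libraries (6 members in 3 groups), 3 held a library far from the other 3. Chance gives about 1 in 20 for measured levels, a rate that does not apply to Cnn1 in OPCs, where 1 count alone sets the gap. SRF-KO OL replicate 4 had 119 normalised CPM of Tagln2 against 74.7 to 82.1 in the others of its group. Control OL replicate 4 had 76.6 of Tagln3 against 101 to 104. Control OPC replicate 4 had 0.086 of Cnn1, which is a single count beside 0 in the other libraries.

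The Tagln2 share of the transgelin sum was lower in every SRF-KO OPC library than in every control OPC library, by 6.87 percentage points in the means (value -6.87), and higher in every SRF-KO OL library than in every control OL library, by 9.01 percentage points. Without SRF-KO OPC replicate 2, which stands apart, the knockout OPC share of Tagln2 was 70.1% against 74.3% in controls, a gap over 1.5 times smaller. The Tagln3 share went the opposite way to that of Tagln2 in each stage, at 6.90 percentage points higher in OPCs and with a value of -7.40 in OLs. The difference between the stages in these shares was not tested.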

How the results depend on the processing

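No call on a member held under all settings. Direction stayed the same under every setting for Cnn2 and Tagln2 in both stages, Cnn3 and Tagln3 in OPCs and Cnn1 in OLs. In OLs, Cnn3 turned positive with library totals (0.22), limma on TPM (0.38) and without control replicate 1 or 2 or SRF-KO replicate 1 or 4 (range over left-out libraries -0.10 to 0.06, the single values being 0.062, 0.011, 0.012 and 6.13e-05). Tagln turned positive with limma (0.057), and Tagln3 with library totals (0.073) and limma (0.12). The stage difference of Cnn3 turned to 0.073 with library totals. Library totals raised the median over all genes by 0.21 on the log2 scale, both in OLs and for the stage difference. The cause was not tested.

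Genes called in OPCs were 9 in edgeR, 139 in DESeq2, 101 with no low-count filter, 31 in 1 fit of all libraries, 5 in limma and 1 to 4 with a library left out. In OLs they were 45, and 74 with library totals (39 higher and 35 lower, against 10 and 35), 299, 129, 94, 3 and 7 to 636, the last without SRF-KO OL replicate 4. For the stage difference they were 18, and 169 in DESeq2, 88 with no filter and 4 to 134 with a library left out. Of thin filament partners, 1 was called in OPCs by DESeq2 and by the unfiltered fit, and in OLs 2 by DESeq2, 1 with no filter, 1 in the fit of all libraries and 0 to 4 with a library left out. Of SRF-MRTF genes, OPCs had 2 in DESeq2, 2 with no filter, 0 in limma and 0 with any library left out, and OLs had 2 in DESeq2 and 0 to 3.

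Same-numbered libraries did not deviate together (correlations -0.281 to 0.049). The labels do not say whether numbers pair the libraries, and groups of 3 or 4 are too small for these correlations to settle it. With a replicate block 2 genes were called in OPCs, 9 in OLs and 0 for the stage difference, with 0 SRF-MRTF genes in OPCs, and Cnn2 had an edgeR adjusted p of 0.163 in OPCs. In OPCs 2 of 3 knockout libraries and in OLs 0 of 4 correlated best with their own number.

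In deposited TPM the Cnn3 share of calponins was 99.6% in control OLs and 99.7% in SRF-KO OLs, and the Tagln2 share of transgelins 47.1% and 56.9%. Depth limits Cnn1 and Tagln in OPCs.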
